A study of Mus musculus with 24 samples.

Results

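Primary mouse hepatocytes kept in culture were sequenced for small RNA, and the comparison described here sets hepatocytes given 20 mM acetaminophen together with 1 µg/ml granulocyte colony-stimulating factor (G-CSF) against untreated hepatocytes. Its members were the microRNA (miRNA) hairpins with 100 or more counts in either of these 2 columns of the hairpin table, which gave 153 of 1186 hairpins. A column with 20 mM acetaminophen alone was read beside them. Acetaminophen is an analgesic whose overdose injures hepatocytes. G-CSF is a cytokine best known for driving the production and release of granulocytes.

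The labels list 24 samples in 4 materials, and each condition was run once on the Ion Torrent PGM and once on the Ion Torrent Proton. The deposited tables hold 1 column per condition, so the 2 libraries of a condition had already been combined and no replicate remained. Every ratio below therefore compares libraries, not conditions, and every interval is a 95% exact (Clopper-Pearson) interval that covers counting error only. The labels name no strain, age or number of mice, no number of cultures and no time of treatment. The hairpin columns held 838624 counts for control, 179751 for acetaminophen and 139361 for acetaminophen plus G-CSF, and values are given as shares of these totals. The control column was 6.02 times as deep as the G-CSF column.

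A miRNA is cut from a folded hairpin transcript, first in the nucleus and then by Dicer in the cytoplasm. The mature strand is loaded into an Argonaute protein and lowers the output of messenger RNAs that pair with its seed, the stretch near its 5′ end. In hepatocytes the best known miRNA is miR-122, which is highly abundant in liver and nearly absent from most other tissues. The miR-21 and miR-155 hairpins are known for their induction in injury and inflammation, and circulating miR-122 is a known marker of acetaminophen liver injury.

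The sequences below belong to hairpins with a large loss of share or a low ratio against control. They are mature miRNAs from RefSeq (GRCm38.p6), written 5′ to 3′ with the seed (bases 2 to 8) in capitals. The mir-21a hairpin lies at chr11:86584067-86584158 (minus strand), in an exon of Vmp1. The mir-21b hairpin lies at chr3:29636744-29636851, in an intron of Egfem1, and mir-3965 lies between genes at chr5:134326454-134326522. miR-21a-5p and miR-21c shared a seed, as did miR-19a-3p with miR-19b-3p and miR-103-3p with miR-107-3p.
miR-21a-5p: uAGCUUAUcagacugauguuga
miR-21b: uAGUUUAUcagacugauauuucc
miR-21c: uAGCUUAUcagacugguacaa
miR-3965: uGCUUAUCagccugauguu
miR-31-5p: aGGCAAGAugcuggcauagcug
miR-19a-3p: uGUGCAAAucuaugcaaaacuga
miR-19b-3p: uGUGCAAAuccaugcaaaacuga
miR-103-3p: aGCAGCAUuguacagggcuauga
miR-107-3p: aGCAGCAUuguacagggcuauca
miR-7b-5p: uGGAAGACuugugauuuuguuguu

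Apart from miR-30a-5p and miR-194-5p, the next sequences belong to hairpins with the largest gains of share or the highest ratios. The mir-30c-1 hairpin lies in an intron of Nfyc at chr4:120769534-120769622 (minus strand), and mir-30c-2 at chr1:23291701-23291784, in an exon of the noncoding gene Gm27028. Both give the same miR-30c-5p, which shares its seed with miR-30a-5p. The mir-155 hairpin lies in an exon of Mir155hg at chr16:84714140-84714204. The mir-194 sequence is shown because mir-194-1 was the most abundant of the 5 hairpins with the lowest ratios between the 2 acetaminophen columns.
miR-30c-5p: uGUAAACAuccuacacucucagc
miR-30a-5p: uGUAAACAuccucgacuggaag
miR-155-5p: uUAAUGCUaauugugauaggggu
miR-2137: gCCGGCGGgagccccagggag
miR-380-5p: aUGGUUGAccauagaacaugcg
miR-194-5p: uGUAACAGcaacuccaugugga

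Hairpin and mature tables do not count the same thing, so 2 whole hairpins are shown with the mature strands in capitals. The mir-2137 hairpin lies at chrX:72992079-72992144, in an intron of Zfp185, and its mature strand was counted in all 3 hepatocyte columns. The mir-3066 hairpin lies at chr12:17355392-17355474, in an intron of Nol10, and both of its mature strands were listed at 0 in all 3 columns.
mir-2137 hairpin: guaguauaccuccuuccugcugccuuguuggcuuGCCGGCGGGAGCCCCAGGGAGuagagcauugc
mir-3066 hairpin: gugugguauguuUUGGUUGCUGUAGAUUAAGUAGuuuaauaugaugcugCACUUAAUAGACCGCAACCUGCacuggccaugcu

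Hepatocytes given acetaminophen plus G-CSF had lost most of the miR-21 reads that dominated the control column and had gained miR-30c, mir-2137 and a set of hairpins rare in control. A hairpin was called higher or lower when its share differed at least 2-fold and the interval of the ratio excluded equality. By this rule 41 of the 153 hairpins were higher and 74 were lower with acetaminophen plus G-CSF, and 38 were neither. Of the 290 hairpins with at least 10 counts in either column, 60.3% were called: 30% were higher and 30.3% were lower. The median log2 ratio over the 153 was -0.87, against -0.36 over the 277 of those 290 for which a ratio could be given. The 41 higher hairpins together made up 8.31% of the control column, 59.6% with acetaminophen alone and 72.7% with both agents. The 74 lower hairpins made up 70.5%, 12.4% and 8.09% in the same order.

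The limit of 100 counts corresponds to 0.0119% of the control column and to 0.0718% of the G-CSF column. Of the members, 82 reached it in both columns, 64 in control only and 7 in the G-CSF column only. The 64 held 43 of the lower hairpins, so nothing is read from the surplus of lower calls. The 7 were all higher, which the limit and the depths of the columns fixed in advance. Among the 82 hairpins that reached the limit in both, 31 were higher and 31 were lower. The nearest members inside the limit were mir-501, with 104 counts in control and 1 in the G-CSF column, and mir-3960, with 64.8 and 106.7 counts. The nearest hairpins outside it were mir-378d, with 95.6 counts in control and 38.1 in the G-CSF column, and mir-532, with 95 and 6.50. The split of calls also depended on the scale: trimmed mean of M values (TMM) factors computed without a filter gave 30 higher and 97 lower hairpins, and shares computed without mir-21a, mir-21b and mir-3965 gave 32 and 96. These moved the median log2 ratio by -0.89 and -0.72, and TMM factors with the filter moved it by -0.16. No hairpin called higher or lower by share of the column total was called the opposite way under any of the 5 other scales.

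**Figure D1:**
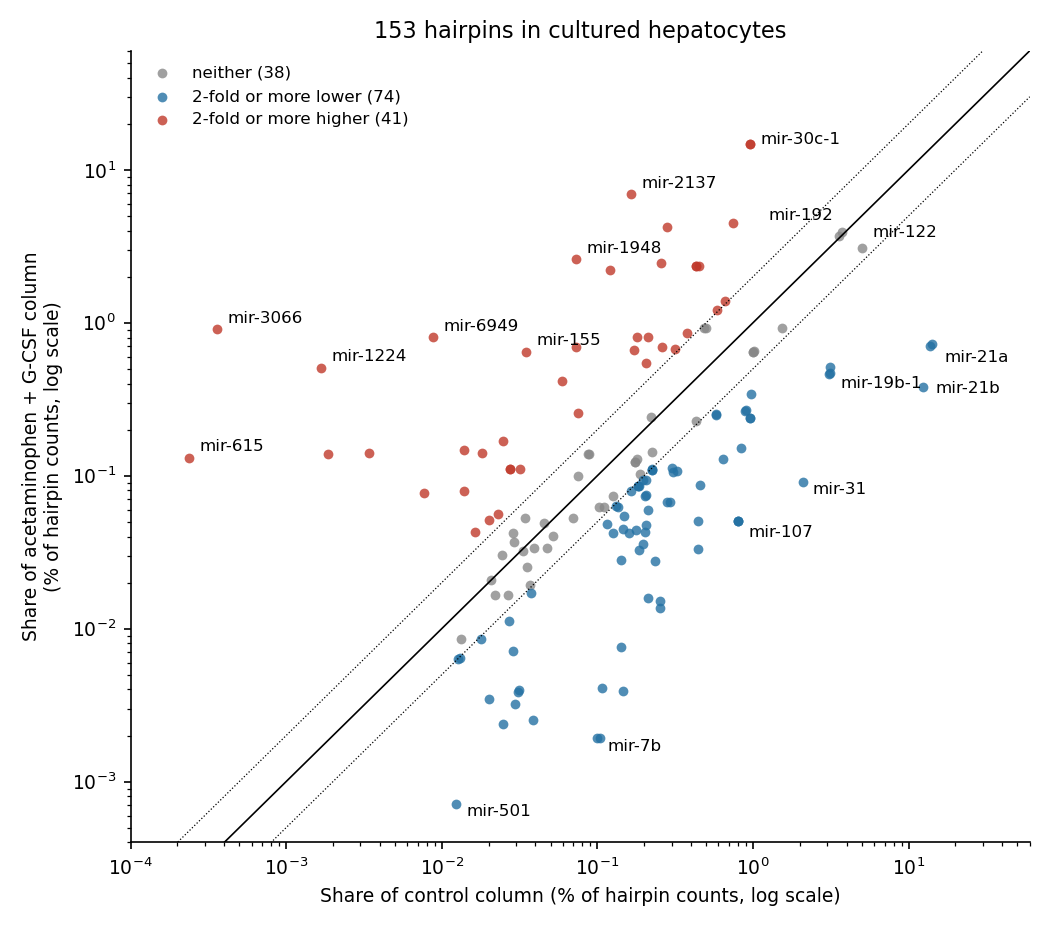
Share of each of the 153 hairpins in the control column (horizontal, % of hairpin counts, log scale) and in the acetaminophen plus G-CSF column (vertical, same unit, log scale), with red for the 41 at least 2-fold higher, blue for the 74 at least 2-fold lower and grey for the 38 others; the solid line marks equal shares and the dotted lines 2-fold. mir-21a and mir-21b sit far below the line at the right, and mir-3066, mir-615 and mir-1224 far above it at the left.

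Among lowered hairpins, the miR-21 group accounted for most of the lost share. mir-21a, an miRNA widely induced in dividing and injured cells, had 119094 counts in control (14.2%), 1221 with acetaminophen (0.679%) and 1018 with acetaminophen plus G-CSF (0.731%). Its share was 19.4-fold lower with acetaminophen plus G-CSF than in control (interval 18.3 to 20.7). The related mir-21b held 12.4%, 0.472% and 0.380% of the 3 columns, a 32.5-fold lower share (29.9 to 35.5). mir-3965, whose mature strand was listed at 0 in every hepatocyte column, followed mir-21a almost count for count, with 13.7%, 0.664% and 0.704%. The longest run of bases that the mir-21a and mir-3965 hairpins share is 9, and no source used here says how the authors divided reads between them. Taken as 1 entry, mir-21a, mir-21b and mir-3965 held 40.2% of the control column, 1.82% with acetaminophen alone and 1.82% with both agents. The summed share with G-CSF was 1.00 times that with acetaminophen alone (interval 0.949 to 1.05), so both treated columns were low to the same measured extent. The mature table showed the same step, with 5536 counts of miR-21a-5p in control, 58 with acetaminophen alone and 64.5 with both agents. In control liver the 3 entries held 1.25%, far below the untreated cultures.

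Other large losses were spread over several families. mir-31, a miRNA abundant in epithelial cells, went from 2.08% in control to 0.161% with acetaminophen alone and 0.0915% with both agents, a 22.7-fold lower share (19.0 to 27.2). The 3 hairpins mir-103-1, mir-103-2 and mir-107, which lie in introns of the pantothenate kinase genes Pank3, Pank2 and Pank1, summed to 2.42%, 0.254% and 0.152%. Their summed share was 15.9-fold lower (13.9 to 18.3), and because they had equal counts they carry 1 measurement. The mir-7 hairpins were rarer: mir-7b had 835 counts in control, 10.7 with acetaminophen alone and 2.67 with both agents. Its ratio was 52.0-fold lower with an interval of 15.8 to 225, and mir-7a-2 and mir-7a-1 were 54.0-fold and 26.4-fold lower. mir-7b and mir-7a-2 had equal counts in both treated columns and may share reads. mir-7a-1 and mir-7a-2 give the same miR-7a-5p, so the mir-7 hairpins are not separate measurements. Their mature strands had 24.5 to 31.5 counts in control and 0 in both treated columns, too few for a call. mir-21c, mir-99b and mir-18b were 37.4-fold, 18.8-fold and 18.4-fold lower. In both treated columns each of the hairpins in this paragraph lay at least 10-fold below control, except the mir-103 and mir-107 group, which was 9.53-fold lower with acetaminophen alone.

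Within the miR-17-92 cluster and its paralogues, which promote proliferation, hairpins were found on both sides of control. Of 14 members, 7 were lower, 2 were higher and 5 were neither, with a median log2 ratio of -1.16. The share lower is close to the 48.4% among all 153 members, and with unfiltered TMM factors 12 were lower and 1 was higher. mir-19a, mir-19b-1 and mir-19b-2 summed to 9.30% in control, 1.28% with acetaminophen alone and 1.45% with both agents, a 6.44-fold lower share (6.16 to 6.73). mir-17, which is cut from the same Mir17hg transcript as mir-19a, was 3.03-fold lower (2.56 to 3.59). mir-92a-1, the last hairpin of that transcript, was 3.48-fold higher (2.85 to 4.28), and mir-92a-2 was 3.99-fold higher. The mir-92a hairpins and mir-92b had nearly equal counts, so reads of 1 could have been assigned to another.

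**Figure D2:**
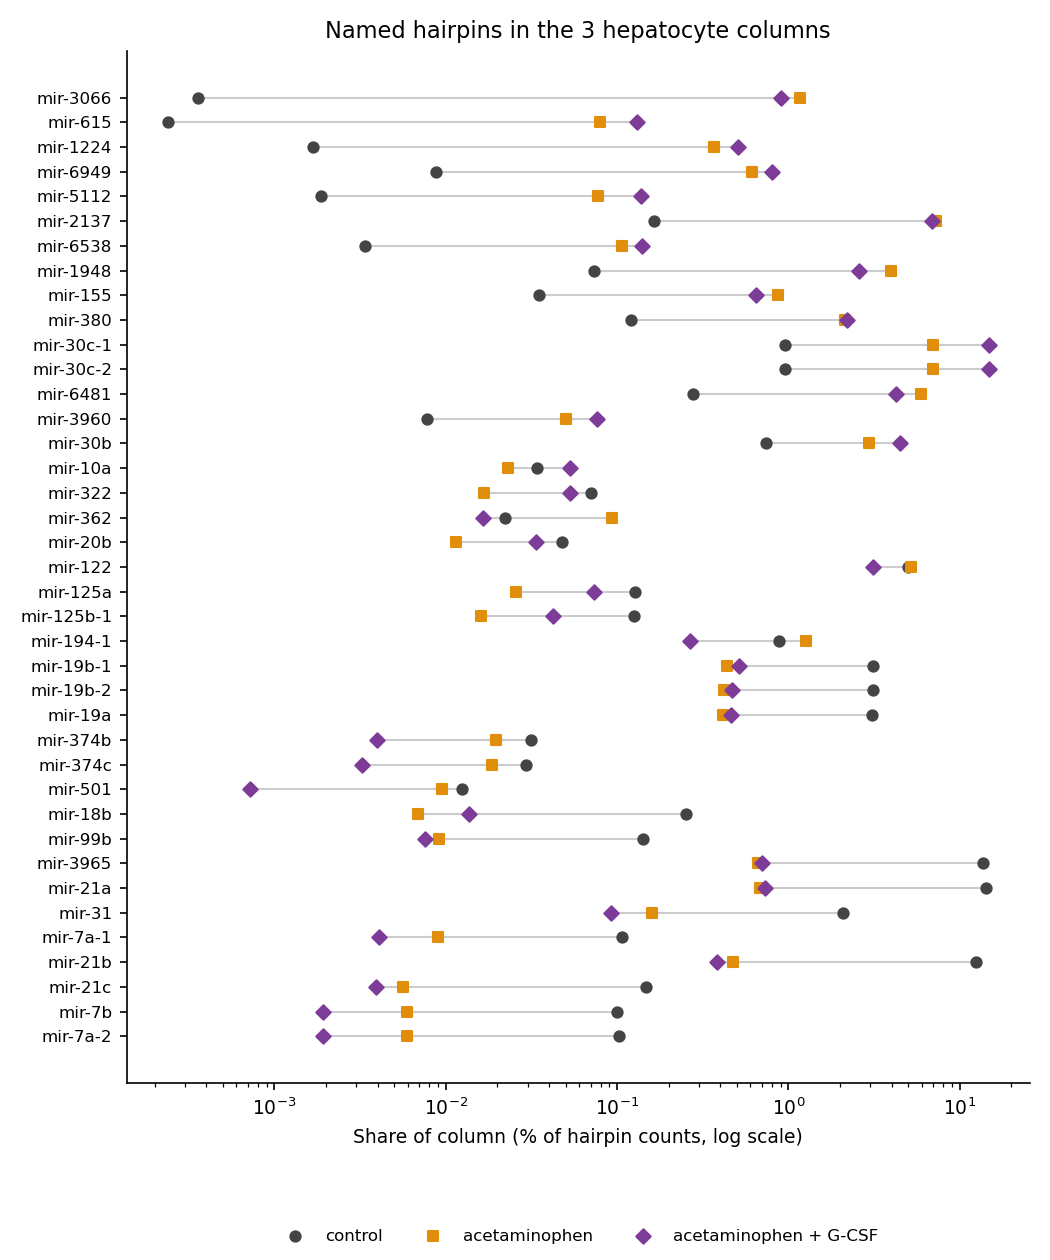
Share of the hepatocyte columns (% of hairpin counts, log scale) held by each named hairpin with 100 or more counts in control or with G-CSF added, ordered by its ratio to control; circles are control, squares acetaminophen and diamonds acetaminophen plus G-CSF. For mir-21a and mir-2137 both treated columns lie close together and far from control, whereas for mir-30c-1 the acetaminophen plus G-CSF column lies beyond the acetaminophen column.

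Among raised hairpins, miR-30c gained the most share. mir-30c-1 had 8001 counts in control (0.954%), 12529 with acetaminophen (6.97%) and 20542 with acetaminophen plus G-CSF (14.7%), and mir-30c-2 had the same shares within 1%. The pair summed to 1.91%, 13.9% and 29.5%, 15.4-fold higher with acetaminophen plus G-CSF than in control (15.2 to 15.7). It was also 2.12-fold higher than with acetaminophen alone (2.08 to 2.15), so the G-CSF column was the highest of the 3. Mature miR-30c-5p had 451 counts in control, 845 with acetaminophen alone and 1437 with both agents. mir-30b, a neighbour in the same family, held 0.742%, 2.93% and 4.47%, a 6.03-fold higher share (5.82 to 6.25). Of the 6 members of the miR-30 family, which is abundant in differentiated epithelia, 5 were higher and 1, mir-30e, was neither at 1.91-fold. Among all 153 members 26.8% were higher. The mir-30c hairpins may share reads, as may mir-30a and mir-30e, so the 5 are not separate measurements. mir-30a and mir-30d were only just past the limit, both at 2.08-fold, and with TMM factors 3 of the 6 were higher. The family held 4.39% of control, 19.9% with acetaminophen alone and 37.5% with both agents.

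mir-2137 went from 1376 counts in control (0.164%) to 13078 with acetaminophen alone (7.28%) and 9625 with both agents (6.91%). Its share was 42.1-fold higher with acetaminophen plus G-CSF (39.8 to 44.6), and both treated columns stood well above control. Mature miR-2137 had 27, 237 and 202 counts. mir-155, an miRNA of immune activation, had 293 counts in control (0.0350%), 1572 with acetaminophen alone (0.874%) and 902 with both agents (0.647%). Its share was 18.5-fold higher (16.2 to 21.2), resting at the mature level on 2, 46 and 26 counts of miR-155-5p. It was the only 1 of 5 miRNAs listed for inflammation that reached the limit. mir-380, from the imprinted Dlk1-Dio3 cluster, held 0.120%, 2.14% and 2.20%, an 18.3-fold higher share (17.1 to 19.7), and was the only one of the 50 hairpins listed for that cluster among the members. The 3 mir-378 hairpins mir-378a, mir-378b and mir-378c, a family tied to energy metabolism, summed to 1.31%, 8.85% and 7.02%, 5.36-fold higher (5.22 to 5.51).

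The 3 highest ratios belonged to hairpins almost unseen in control. mir-3066 had 3 counts in control, 2096 with acetaminophen alone and 1268 with both agents, a ratio of 2544 with an interval of 868 to 12350. mir-615 had 2, 143 and 183 counts, a ratio of 551 (150 to 4581). mir-1224 had 14, 660 and 710 counts, a ratio of 305 (181 to 561). These were followed by mir-6949 at 90.8-fold, mir-5112 at 73.9-fold, mir-2137 at 42.1-fold, mir-6538 at 41.3-fold and mir-1948 at 35.5-fold. mir-6481, common in control already, had 0.278% of control, 5.94% with acetaminophen alone and 4.24% with both agents, a 15.2-fold higher share (14.52 to 15.99).

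Mature counts were missing behind many of these hairpins. Over all 1186 hairpins, the tables held 31.9 mature counts per 1000 hairpin counts in control, 29.7 with acetaminophen alone and 31.9 with both agents. Of the 41 higher hairpins, 13 had fewer than 1 mature count per 1000 hairpin counts, and 10 of those 13 had no mature count at all. In this measure, hairpins that may share reads were pooled with their mature strands, and none of the 74 lower hairpins or the 38 others fell under that value. By its own mature strand alone, mir-3965 among the lower hairpins and mir-101b and mir-101c among the others had no mature count either. The 13 were mir-6481, mir-1948, mir-6239, mir-3066, mir-6236, mir-6949, mir-1224, mir-878, mir-6538, mir-5112, mir-615, mir-669e and mir-3960, all found after their values were seen. Together they held 0.739% of the control column, 15.1% with acetaminophen alone and 12.9% with both agents. Without them, in shares of the remaining counts, 30 hairpins were higher and 59 were lower. Of the 13, mir-3066, mir-6949, mir-1224, mir-6538, mir-5112, mir-615 and mir-3960 became members through the G-CSF column only and could only be higher. The contrast with the lower hairpins is therefore partly set by the entry rule.

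Hairpins with entry numbers of 1000 or above, assigned later to miRNA catalogues, made up 14 of the 41 higher hairpins, 5 of the 74 lower ones and 2 of the 38 others. Of the 14, mir-3066, mir-1224, mir-6949, mir-5112, mir-6538 and mir-3960 were members through the G-CSF column only and could only be higher. Median GC content was 46.7% for the 28 higher hairpins with a sequence in the RefSeq table, 47.7% for 65 lower ones and 51.1% for 35 others. Where mature counts were sufficient, the tables mostly went the same way. Of 85 called hairpins with at least 10 mature counts in either column, the mature strands were called the same way for 59 and not called for 25. The exception was mir-5099, whose hairpin was 2.44-fold higher and whose mature strand had 94.5 counts in control, 0 with acetaminophen alone and 1 with both agents. In the mature table by itself, 23.0% of 100 miRNAs were higher and 31.0% were lower.

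**Figure D3:**
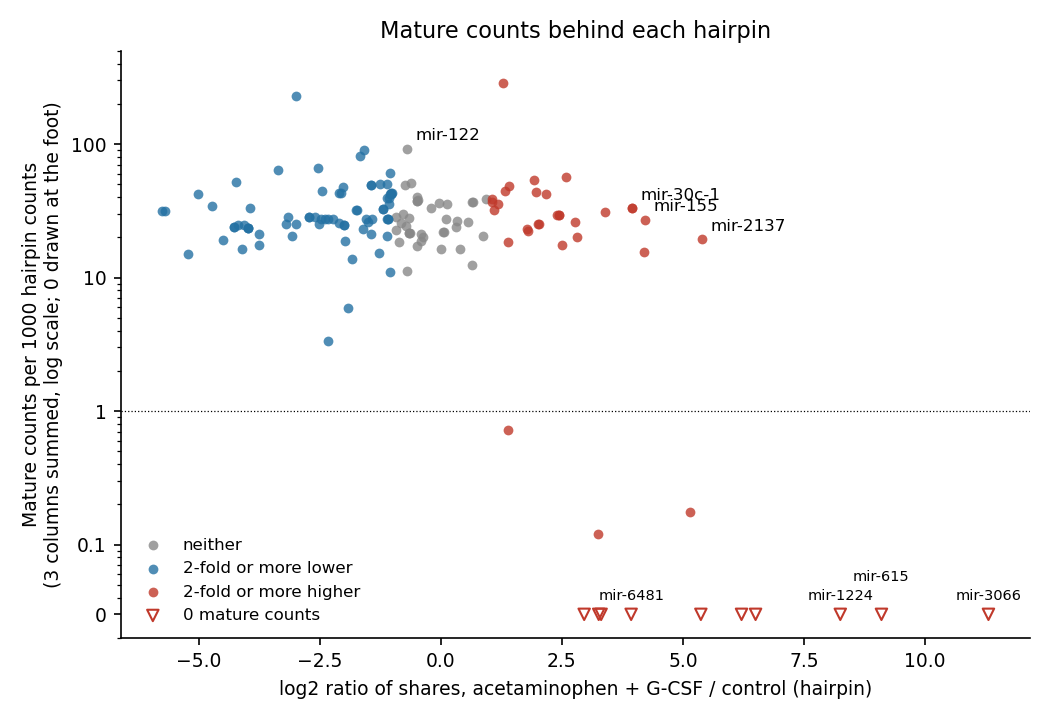
Mature counts per 1000 hairpin counts over the 3 hepatocyte columns, pooled over hairpins that may share reads (vertical, log scale, with 0 drawn as open triangles at the foot) against the log2 ratio of hairpin shares, acetaminophen plus G-CSF to control (horizontal), for 153 hairpins; red is higher, blue lower and grey neither. With this pooling, the 13 hairpins below the dotted line at 1 per 1000 are among the higher ones, while mir-2137, mir-155 and mir-30c-1 lie with the rest.

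Hepatocyte markers stayed present in both treated columns. mir-122 had 41925 counts in control (4.999%), 9279 with acetaminophen (5.16%) and 4320 with acetaminophen plus G-CSF (3.10%). Its share with acetaminophen plus G-CSF was 1.61-fold lower than in control (1.56 to 1.66), below the 2-fold limit. That call depended on the scale: the log2 ratio was -0.69 by column total, -1.58 with unfiltered TMM factors and -1.41 without mir-21a, mir-21b and mir-3965, and the last 2 pass 2-fold. All 7 hairpins listed as enriched in hepatocytes were members, and 0 were higher, 2 were lower and 5 were neither, with 4 lower under those 2 scales. The list held 14.3% of control, 21.99% with acetaminophen alone and 11.4% with both agents, against 16.5% of control liver. mir-192 and mir-215 share a seed and summed to 7.28%, 14% and 7.61%, 1.05 times control with G-CSF added (1.02 to 1.07), a direction that turned with the scale. The 2 lower hairpins were the mir-194 pair. mir-194-1, encoded beside mir-215 on chromosome 1, held 0.885%, 1.26% and 0.266%, a 3.32-fold lower share (2.996 to 3.701).

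Markers of other liver cells were mostly scarce. The lists for erythroid, mesenchymal and stellate, striated muscle and neural cells held no member. The erythroid list summed to 0.00179% of control, 0.00835% with acetaminophen alone and 0.00323% with both agents, and the mesenchymal and stellate list to 0.0208%, 0.171% and 0.0728%. mir-126a, typical of endothelium, held 0.261%, 0.981% and 0.690% and was 2.65-fold higher (2.45 to 2.86). It was not called with unfiltered TMM factors (log2 ratio 0.52) or without mir-21a, mir-21b and mir-3965 (0.69). Its mature strands differed. miR-126a-3p, with 85, 69 and 25 counts, was 1.77-fold higher and not called. miR-126a-5p, with 4, 25 and 30 counts, was 45.1-fold higher. Of the 5 hairpins in the leukocyte list, mir-342 was a member, and the list summed to 0.0332%, 0.0899% and 0.0456%. In RNA from a whole culture, fewer cells of a type and less RNA per cell cannot be told apart, and the part of other cell types in these results was not tested.

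Lower calls filled some families and not others. Of 11 let-7 hairpins, which restrain growth and are typical of differentiated cells, 10 were lower and let-7b was neither, with a median log2 ratio of -1.55. The family held 2.73% of control, 1.17% with acetaminophen alone and 0.823% with both agents. By the rule used here all 11 except let-7d and let-7e may share reads, so the 10 are not separate measurements. Mature let-7d-5p and let-7e-5p also had fractional counts (90.02 and 55.32 in control), so they too may share reads. The mature strands of let-7e, let-7g and let-7i were not called (log2 ratios -1.41, -0.50 and -0.47). All 6 hairpins of the mir-23, mir-24 and mir-27 clusters were lower, with a median of -1.45 and sums of 2.13%, 1.17% and 0.785%. The hairpins of each number (mir-23a with mir-23b, mir-24-1 with mir-24-2, mir-27a with mir-27b) may share reads. In the miR-99, miR-100 and miR-125 group 5 of 6 were lower, against 48.4% of all 153 members, and mir-125a was neither. mir-99a and mir-100 may share reads, and their mature strands were not called (log2 ratios -0.90 and -1.35). The mature strands of mir-99b, mir-125b-1 and mir-125b-2 were called lower. In the miR-15/16 group, which acts against cell cycle genes, 4 of 7 were lower and 0 were higher, near the 48.4% lower among all 153 members. mir-16-1 and mir-16-2 may share reads. mir-34a, a p53 target, held 0.445% of control, 0.0843% with acetaminophen alone and 0.0502% with both agents, and was 8.85-fold lower (6.99 to 11.4). mir-221 and mir-222 were both lower, and mir-210, the main hypoxia-induced miRNA, was neither at 1.61-fold lower. The miR-29 family, which targets collagens, had calls in both directions: mir-29a was 4.50-fold higher, mir-29c 2.28-fold higher, mir-29b-2 2.10-fold lower and mir-29b-1 neither. The mature strands of mir-29b-2 went the other way (log2 ratio 0.45, not called), mir-29c was not called with unfiltered TMM factors (0.30), and mir-29b-1, mir-29b-2 and mir-29c may share reads. The median of that family changed sign with the scale, from -0.23 to 0.67.

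**Figure D4:**
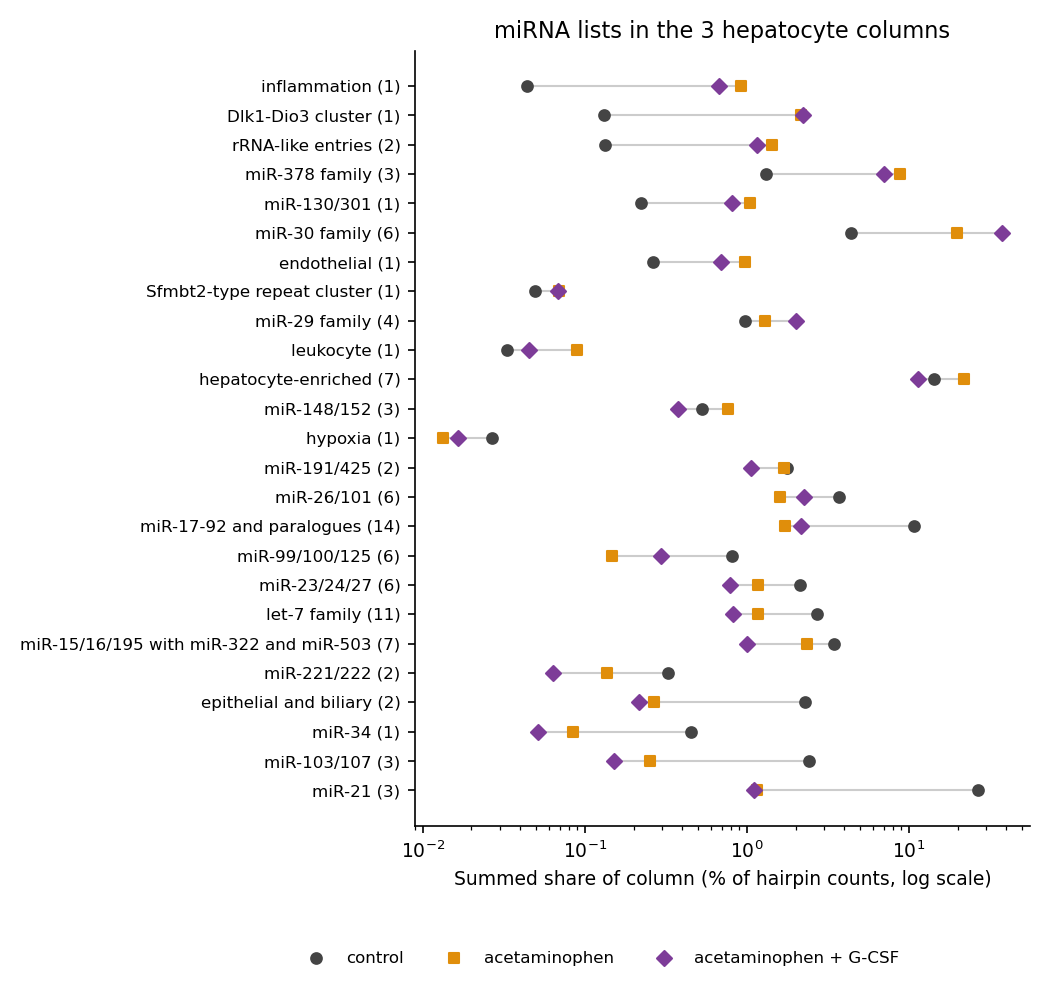
Summed share of the hepatocyte columns (% of hairpin counts, log scale) for each miRNA list with at least 1 member, with the number of members in brackets, ordered by the median log2 ratio of the members, acetaminophen plus G-CSF to control; circles are control, squares acetaminophen and diamonds acetaminophen plus G-CSF. The miR-21 list falls from 26.7% in control to 1.12% with G-CSF added, and the miR-30 family stands at 37.5% with G-CSF added.

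Most of the difference seen with acetaminophen alone was also present when G-CSF was added. With acetaminophen alone, 38 of the 153 hairpins were higher than control and 60 were lower, where 33.1% and 24.8% of 302 hairpins with at least 10 counts were. Of the 38, 35 were also higher with G-CSF added, 3 were not called and 0 were lower. Of the 60, 51 were also lower, 9 were not called and 0 were higher. Both comparisons use the same control column, so these counts are not independent of each other. Members were also chosen by their counts in the control and G-CSF columns. The 5 hairpins that reached the limit only in the acetaminophen column are therefore not among the 38. The 38 may thus overstate how far rises with acetaminophen remained when G-CSF was added. The median log2 ratio of the 38 was 2.75 with acetaminophen alone and 2.79 with both agents, and that of the 60 was -2.22 and -2.28. Measured over all hairpins, 62.0% of the counts would have to change hairpin to turn the control profile into the acetaminophen profile. The figure was 67.1% from control to acetaminophen plus G-CSF and 22.6% between the 2 treated columns. Without the mir-30c pair the last value was 16.8%, and the other two were 61.5% and 62.2%.

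The 3 hairpins higher with acetaminophen and not called with G-CSF added were mir-362, mir-342 and mir-140, named here because they were so few. mir-362 had 0.0221% of control, 0.0929% with acetaminophen alone and 0.0165% with both agents, and its ratio to control with G-CSF added was 0.748 (0.463 to 1.16). mir-342 had 0.0243%, 0.0729% and 0.0301%. mir-140 had 0.502%, 1.00% and 0.926% and so lay just on either side of 2-fold. By its mature strands mir-140 was called higher with both agents (log2 ratio 1.45). The 9 lower hairpins that were not called with G-CSF added were mir-185, mir-106a, mir-106b, mir-20b, mir-125a, mir-322 and the 3 mir-101 hairpins. Their log2 ratios by hairpin ran from -2.31 to -1.26 with acetaminophen and from -0.92 to -0.40 with G-CSF added, so by hairpin all stayed below control. The 3 mir-101 hairpins may share reads. Mature miR-101a-3p held 1.97% of control, 0.732% with acetaminophen alone and 1.80% with both agents. Its ratio to control with G-CSF added was 0.911 (0.711 to 1.15). The mature strands of mir-185 were called lower than control with G-CSF added (log2 ratio -1.39).

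**Figure D5:**
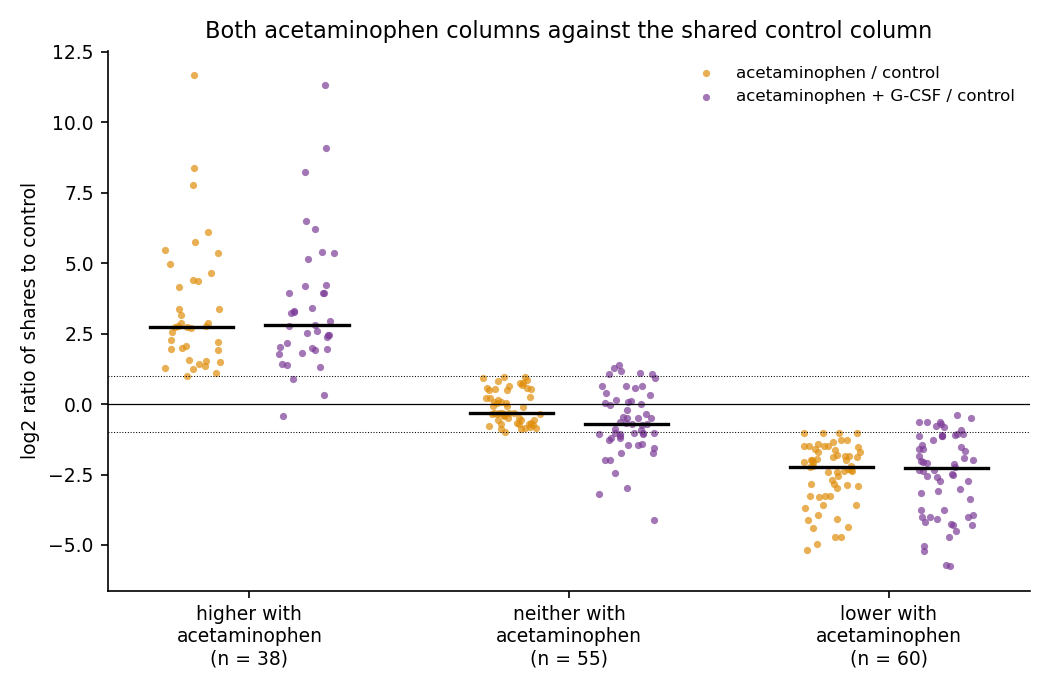
log2 ratio of hairpin shares to control for acetaminophen alone (orange) and acetaminophen plus G-CSF (purple), for hairpins grouped by their call with acetaminophen alone; each point is a hairpin, thick bars are medians, dotted lines mark 2-fold, and both ratios share the control column. Among the 38 hairpins higher and the 60 lower with acetaminophen, the medians with G-CSF added lie at 2.79 and -2.28.

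Set directly against acetaminophen alone, the G-CSF column differed at fewer hairpins. Of the 153, 8 were higher and 19 were lower, where 6.52% and 17% of 230 hairpins with at least 10 counts were. The 8 were both mir-30c hairpins, mir-10a, mir-20a, mir-20b, mir-125a, mir-125b-1 and mir-322. mir-322, expressed with mir-503, had 0.0700% of control, 0.0167% with acetaminophen alone and 0.0531% with both agents, 3.18-fold above acetaminophen alone. mir-125a had 0.127%, 0.0256% and 0.0736%, 2.87-fold above it. For both, the G-CSF column lay between acetaminophen and control. Their mature strands were too few to show this, with 12, 1 and 0 counts for mir-322 and 32, 1 and 3 for mir-125a. mir-503 did not move back: it held 0.446% of control, 0.0373% with acetaminophen alone and 0.0330% with both agents. mir-10a was 2.30-fold above acetaminophen, and its direction against control turned with the scale.

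The 19 lower hairpins included the mir-194 pair, both mir-16 hairpins, mir-195a, mir-27a, mir-27b, the 3 hairpins of the mir-148 and mir-152 family, mir-222, mir-374b, mir-374c and mir-501. mir-194-1 was 4.75-fold lower than with acetaminophen alone, where its share had been above control. mir-16-1 held 0.956%, 0.744% and 0.239%, 3.12-fold lower than with acetaminophen alone, and mir-195a held 0.834%, 0.587% and 0.152%, 3.85-fold lower. Of the 55 hairpins called neither with acetaminophen alone, 23 were lower than control with G-CSF added, and 10 of these 23 were also called lower than acetaminophen alone. Another 6 of the 55 were higher than control with G-CSF added, and 0 of these 6 were called higher than acetaminophen alone.

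In liver of mice given acetaminophen at 500 mg/kg with G-CSF at 100 µg/kg, a different dose and given to animals, the same 153 hairpins were higher in 32 cases and lower in 16, where 20.7% and 19.4% of 458 hairpins were. Of these, 16 had the same call in cultured hepatocytes and 24 the opposite one. The 16 included mir-2137, mir-1224, mir-6949 and mir-5112, all higher in both materials. The log2 ratio in liver was 3.38 for mir-2137 against 5.40 in hepatocytes, and 6.68 for mir-1224 against 8.25. The value for mir-1224 rests on 1 count in control liver (ratio 103, interval 17.9 to 4099). The lower pair mir-194-1 and mir-194-2 was also lower in liver, by log2 ratios of -1.59 and -1.52. Moving from control to acetaminophen plus G-CSF, 23.4% of liver counts would have to change hairpin, against 67.1% in hepatocytes.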

How the data were processed

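Small RNA of mouse hepatocytes was isolated with a Norgen kit, made into libraries by means of an Ion Total RNA-Seq v2 kit and sequenced on Ion Torrent PGM and Proton instruments, per the labels. The authors deposited estimated counts (expected counts) per hairpin and per mature miRNA, not scaled to depth, in 12 columns of 1 condition each, per the file headers. The sources used here give no aligner, genome build, annotation release or rule for dividing reads. Columns were matched to conditions by the sample titles.

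Counts were divided by the column total. Ratios carry 95% exact conditional (Clopper-Pearson) intervals on counts rounded to whole numbers. A call needed at least 2-fold and an interval that excluded 1, and a count of 0 was set to a floor of 3 for a bound. Groups of hairpins that may share reads were those with a common run of 16 bases or with counts within 5% of each other in the 3 hepatocyte columns, 116 groups over the 153 members. No replicate exists, so no test of conditions was made and no p-value is given. The call rule was run on simulated data that held counting error only, the error that the intervals already assume. That run cannot show how the calls fare with differences between libraries, instruments or cultures. Alternatives used TMM factors from edgeR 4.0.16 and size factors from DESeq2 1.42.0.

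Hairpins were named by rule: mir-122, the 10 highest and 10 lowest ratios, the 6 largest gains and losses of share, up to 5 per direction between the treated columns, the 2 nearest on each side of the limit, and up to 4 examples per list. Others were chosen after their values were seen. The members, the 30 lists and the rules were chosen with earlier results of these data known. RefSeq (GRCm38.p6) gave a hairpin sequence for 128 of 153 members, and gene annotation is GENCODE's for GRCm38.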

Additional observations from a re-analysis of the deposited data

Results flagged for a closer look

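For 9 named hairpins the call in liver was opposite to that in cultured hepatocytes, each with acetaminophen plus G-CSF against its own control; the difference was not tested. Hairpins lower in hepatocytes had log2 ratios in liver of 1.88 for mir-21a, 2.01 for mir-21b, 1.66 for mir-21c, 1.89 for mir-3965, 1.72 for mir-7a-1, 1.77 for mir-7a-2 and 1.80 for mir-7b. Their log2 ratios in hepatocytes were -4.28, -5.02, -5.22, -4.28, -4.72, -5.75 and -5.70. Hairpins higher in hepatocytes had log2 ratios in liver of -1.54 for mir-6481 and -2.65 for mir-380, against 3.93 and 4.20. With acetaminophen alone, however, mir-6481 and mir-380 were called higher in liver too, by log2 ratios of 1.82 and 1.02. The hairpins lower in hepatocytes lay above control in liver with acetaminophen alone as well. Dose and material differ between the 2 comparisons.

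mir-2137 was also counted in exosomes from the medium of these hepatocytes, which enter none of the comparisons. It held 2.31% of the control exosome column (21 of 911 counts), 26.3% with acetaminophen (44 of 167) and 8.10% with acetaminophen plus G-CSF (14 of 173).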

How the results depend on the processing

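No paired analysis was possible because each condition has 1 combined column. The counts of 41 higher and 74 lower hairpins became 27 and 41 with calls at 4-fold, and 23 and 31 in the mature table, which is shallower. With 1 entry per group of hairpins that may share reads, 49 entries were lower and 37 higher. The percent of counts that would have to change hairpin, given from control to acetaminophen, from control to acetaminophen plus G-CSF and between the treated columns, was 57.28, 61.71 and 22.04 without the leading hairpin of each column. It was 55.73, 62.76 and 26.23 in the mature table, 50.88, 61.56 and 22.95 without mir-21a, mir-21b and mir-3965, and 61.49, 62.24 and 16.8 without the mir-30c pair. For log2 ratios of named hairpins and list examples under filtered TMM factors, DESeq2 size factors, shares without the leading hairpins and mature strands, 326 values kept direction and call, 9 lost the call and 1 turned: mir-29b-2 was -1.07 by hairpin and 0.45 by its mature strands. Hairpins whose mature strands gave no ratio, such as mir-3066, mir-615 and mir-1224, have no mature value in this tally. Unfiltered TMM factors and shares without mir-21a, mir-21b and mir-3965 are not in it either. These 2 scales gave 30 higher and 97 lower hairpins, and 32 and 96. With unfiltered TMM factors mir-10a turned from 0.64 to -0.25. The causes were not tested. Of the 9 lost calls, 8 came with mature counts. Depth limits rare hairpins most: mir-7b rested on 2.67 counts and mir-501 on 1 in the G-CSF column, mir-615 on 2 and mir-3066 on 3 in control.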

Other observations

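Among hairpins outside the lists, mir-193b was 5.71-fold higher with acetaminophen plus G-CSF than in control, with 117 counts in control, 167 with acetaminophen alone and 111 with both agents. mir-139 was 10.6-fold higher, with 116, 226 and 204 counts. mir-423 was 3.42-fold higher, with 634, 385 and 360 counts, and mir-22 was 2.14-fold higher, with 2650, 962 and 944. mir-484 was 2.85-fold lower (2.60 to 3.13), with 8139 counts in control, 383 with acetaminophen alone and 475 with both agents. mir-182 was 15.4-fold lower, with 323, 7 and 3.50 counts. mir-455 was 8.46-fold lower, with 1968, 172 and 38.7 counts, and it was also 3.46-fold lower than with acetaminophen alone. These hairpins were chosen after their values were seen.

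The 1033 hairpins below the limit made up 0.589% of the control column, 2.17% with acetaminophen alone and 1.595% with both agents. Another 5 hairpins reached 100 counts in the acetaminophen column alone.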
